A study of Saccharomyces cerevisiae with 8 samples.

Results

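The data described here are the array signals of the cytosolic ribosomal protein genes of Saccharomyces cerevisiae in 4 strains grown on glycerol. The members are the probe sets annotated to a gene whose symbol is RPL or RPS followed by a number and an optional A or B, together with the 5 stalk genes RPP0, RPP1A, RPP1B, RPP2A and RPP2B. The rule found 147 probe sets for 127 genes, among 5498 probe sets and 5449 genes of this species on the array. The 127 genes comprise 70 large-subunit genes, 52 small-subunit genes and the 5 stalk genes. Of the 147 probe sets, 118 belong to a single gene and 29 are marked by their suffix as shared with near-identical sequences, usually the other copy of the same protein. Shared probe sets are named as such wherever their values are given, since their signal cannot be divided between the copies. Genes that fit the rule but have no named probe set in the table used were not analysed here. No chromosome positions are given, because no genome build is stated for the array annotation.

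Ribosomal proteins assemble with rRNA into the small and large subunits of the ribosome, and in growing yeast their mRNAs are among the most abundant in the cell. Most of these proteins are encoded by a pair of near-identical genes, called A and B, which remain from an ancient duplication of the genome. Their transcription rises on rich carbon sources and falls under nutrient limitation and stress, through the TOR and protein kinase A pathways acting on the factors Rap1, Fhl1, Ifh1, Crf1 and Sfp1.

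The 4 strains were BY4741, the wild type control; A880, which is BY4741 with a deletion of POP2; A880STM1, which is A880 transformed with STM1; and A880STM1K, which is A880 transformed with STM1 whose arginine 237 was replaced by lysine (R237K). Pop2 is a deadenylase of the Ccr4-Not complex, which shortens mRNA poly(A) tails, and Stm1 is a protein that binds the ribosome and clamps it in a resting state. Every culture was grown in synthetic medium with 2% glucose to an OD600 of 1, washed, and kept for 12 hours in the same medium with 2% glycerol, so that no array shows glucose-grown cells. Each strain has 2 arrays, from separate experiments and cultures per the labels, and the labels do not say how many independent transformants were used or which promoter and plasmid carried STM1.

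The signal of POP2 was 883 and 814 on the BY4741 arrays and 0.221 and 0.452 on the A880 arrays, where it was below background. It was 181 and 286 on the arrays labelled A880STM1 and 255 and 176 on those labelled A880STM1K, above background on all 4, which goes against the deletion that both labels imply. STE18, the gamma subunit of the mating pheromone G protein, was 1017 and 1005 on the BY4741 arrays, 975 and 1021 on A880, 24.0 and 17.7 on A880STM1 and 31.1 and 29.3 on A880STM1K. URA3 was 3.32 and 1.14 on the BY4741 arrays and at least 1384 on the other 6. STM1 itself read 2043 and 2566 on the BY4741 arrays, 2960.3 and 3096 on A880, 9441 and 5027 on A880STM1 and 8697 and 8143 on A880STM1K. The names A880STM1 and A880STM1K below therefore stand for the arrays so labelled, and every direction drawn from them rests on those labels.

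The ribosomal protein probe sets were above background on all 8 arrays, 147 of 147. Their median signal, in the arbitrary units of the array software, was 1728 and 1928 on the BY4741 arrays, 1817 and 2081 on A880, 4098 and 2269.9 on A880STM1, and 4682 and 3490 on A880STM1K. Both A880STM1K arrays and the first A880STM1 array therefore stood above the 4 arrays of the other strains, while the second A880STM1 array lay just above them. The median of all other tested probe sets was lower on the 4 arrays of the transformed strains, at 643 and 647, 713 and 693, 469.6 and 604, and 569 and 521 in the same order. The members held 4.70% and 4.94% of the signal of all tested probe sets on BY4741, 4.63% and 5.22% on A880, 9.34% and 5.71% on A880STM1, and 11.2% and 8.38% on A880STM1K. All arrays share the same trimmed mean signal, so a larger share for these mRNAs lowers the values of others, and more ribosomal protein mRNA per cell, less of other mRNA and a change in the mix of cells cannot be told apart.

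**Figure D1:**
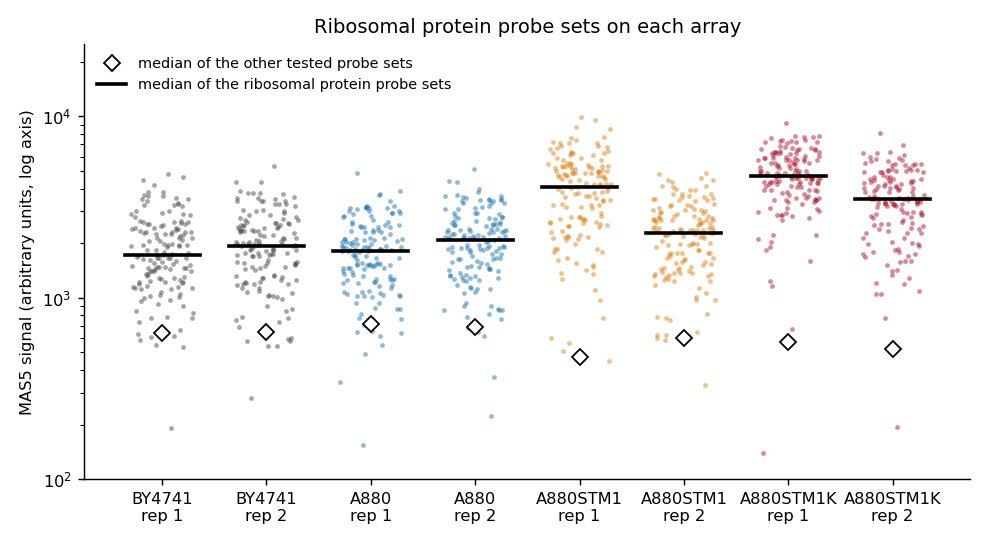
MAS5 signal of each of the 147 ribosomal protein probe sets (points, log axis) on the 8 arrays, with their median (bar) and the median of the other tested probe sets (diamond). The bars stand between 1728 and 2081 on the BY4741 and A880 arrays, at 4098 and 2269.9 on A880STM1, and at 4682 and 3490 on A880STM1K, while the diamonds stay between 469.6 and 713.

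The 2 arrays of a strain did not repeat each other equally well. Over all tested probe sets, the median absolute log2 difference between the 2 arrays was 0.46 in A880STM1 and 0.39 in A880STM1K, against 0.14 in BY4741 and 0.12 in A880. Among the ribosomal proteins the difference had a direction in A880 and in both transformed strains, and a smaller one in BY4741. In A880STM1 142 of 147 were higher on the first than on the second array, with a median difference of 0.81 on the log2 scale. In A880STM1K 144 of 147 were higher on the first array, with a median of 0.43. In A880 the direction was the opposite, with 7 of 147 higher on the first array and a median of -0.20. In BY4741 45 of 147 were higher on the first array, with a median of -0.07. Set against the mean of the A880 arrays, the members' median was 1.00 on the first A880STM1 array and 0.21 on the second, and 1.31 and 0.84 on the A880STM1K arrays. The same medians over all tested probe sets were -0.42, -0.13, -0.12 and -0.21. STM1 and LEU2 were also higher on the first than on the second A880STM1 array, at 9441 and 5027 and at 7704 and 3412; their part in the difference was not tested.

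**Figure D2:**
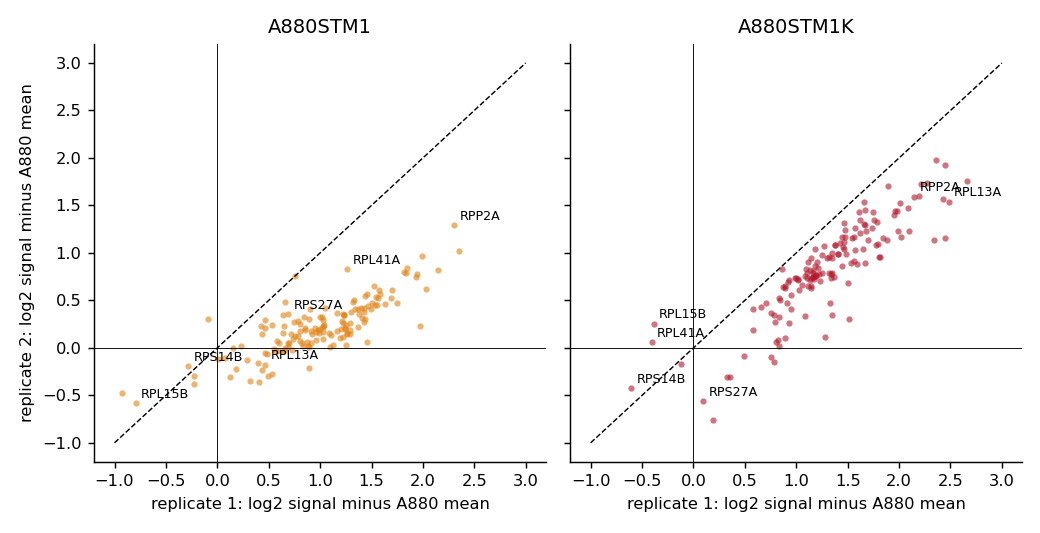
Change of each of the 147 ribosomal protein probe sets from the A880 mean (log2) on replicate 1 (x axis) and replicate 2 (y axis) of A880STM1 and A880STM1K, with the line of equality dashed. Most points lie below the line in both panels, 142 of 147 in A880STM1 and 144 of 147 in A880STM1K, and RPS14B, RPS27A and RPL15B lie apart from the main cloud.

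The comparison of A880 with BY4741 addresses the deletion of POP2. These arrays also differed in URA3, as above, and in LEU2, which changed by -1.22 ± 0.33 on the log2 scale, and the mating genes MFA2 and AGA2, at -1.40 ± 0.31 and 1.46 ± 0.29, all called. Their part in the results was not tested. The ribosomal proteins did not shift as a group: the median change was 0.02 on the log2 scale, beside 0.02 over all tested probe sets, with 74 members above 0 and 73 below. A change was called where limma's adjusted p, after Benjamini-Hochberg over the 5496 tested probe sets, was below 0.05. By that rule 0 of 147 members rose and 1 fell, while 13.9% of all tested probe sets were called, 7.71% higher and 6.19% lower. The member that fell was RPL22B, one of the genes for the large-subunit protein L22, which read 773 and 759 on BY4741 and 346 and 367 on A880, with no overlap. Its log2 change was -1.11 ± 0.28 (SE, 2 arrays per group; adjusted p = 0.0288), and the call was lost when any 1 of these 4 arrays was left out. Its partner RPL22A changed by -0.36 ± 0.35 without passing the test. The other members ranged up to 0.73. The stalk genes RPP0, RPP1A, RPP2A and RPP2B lay lower on both A880 arrays than on both BY4741 arrays and RPP1B lay higher, at changes between -0.40 and 0.35, and 0 of these 5 passed the test. Of all tested probe sets 41.5% lay higher on both A880 arrays and 37.7% lower. With array medians made equal the calls over all tested probe sets turned to 413 higher and 554 lower from 424 and 340. With the spread taken from these 4 arrays alone 18 members rose and 15 fell, beside 1629 and 1363 of all 5496 probe sets, and with array weights per group 21 rose and 16 fell, beside 1695 and 1445.

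In the comparison of A880STM1K with A880 ribosomal proteins of both subunits rose. These arrays also differed in marker genes other than STM1. LEU2 read 248 and 214 on A880 and 9186.5 and 7640 on A880STM1K. URA3 read 5062 and 5537 on A880 and 1850 and 1384 on A880STM1K. AGA2 read 729 and 747 on A880 and 128 and 118 on A880STM1K. Their part in the results, and that of POP2 and STE18, was not tested. Of 147 members 116 rose and 0 fell, with a median log2 change of 1.05, while 19.1% of all tested probe sets rose, 28.0% fell, and their median was -0.17. The large-subunit probe sets rose in 59 of 77 cases with a median of 1.06, the small-subunit probe sets in 52 of 65 with a median of 1.02, and the RPP genes in 5 of 5 with a median of 1.36. Over the 118 unshared probe sets alone, 94 rose. With array medians made equal, 127 members rose and the calls over all tested probe sets turned to 1610 higher and 1099 lower, from 1051 higher and 1538 lower, as the median of all tested probe sets moved to 0.18; with quantile normalization 109 members rose and 2 fell. Without the first A880 array 57 members were called, and without the first A880STM1K array 64. Of the 116 calls 53 held under both other scalings and with each of the 8 arrays left out in turn, and these are said below to hold throughout.

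RPS22A, a small-subunit protein, had the largest change, 2.21 ± 0.48 on the log2 scale (adjusted p = 0.00378), from signals of 489.7 and 617 on A880 to 3469 and 1859 on A880STM1K. RPL22A rose from 640.4 and 814 to 3939 and 2742, a log2 change of 2.19 ± 0.35 (adjusted p = 0.000766). RPL15A, whose protein belongs to the core of the large subunit, rose from 1272 and 1276 to 6542 and 5009.5, a change of 2.17 ± 0.33 (adjusted p = 0.000619). In all 3 genes both A880STM1K arrays lay above both A880 arrays. RPL13A followed at 2.01 ± 0.33, RPL17B at 2.00 ± 0.28 and RPL22B at 1.99 ± 0.28. Both copies of L2, a protein next to the peptidyl transferase centre that is needed for catalysis, were close to each other at 1.97 ± 0.33 for RPL2A and 1.90 ± 0.38 for RPL2B. These 8 calls held under both other scalings and with each array left out.

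**Figure D3:**
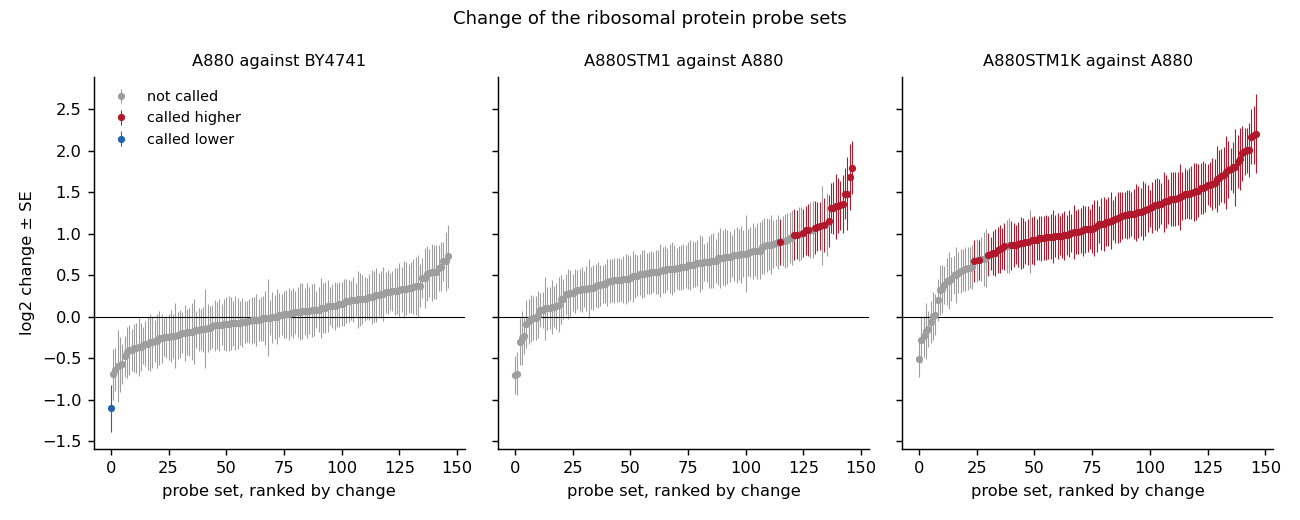
Log2 change (y axis, bars are SE) of the 147 ribosomal protein probe sets, ranked within each comparison (x axis), for A880 against BY4741, A880STM1 against A880 and A880STM1K against A880. From left to right 1, 21 and 116 members are called by limma, and the medians are 0.02, 0.60 and 1.05.

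The stalk is the flexible arm of the large subunit that recruits translation factors, built from P0, P1, P2 and L12. All 7 of its probe sets rose in A880STM1K against A880, with a median of 1.36. RPP2A, one of the acidic P2 proteins, read 1743 and 1546 on the BY4741 arrays, 1227 and 1399.7 on A880, 6472 and 3202 on A880STM1 and 5796 and 3949.5 on A880STM1K. Its change was 1.87 ± 0.32 (adjusted p = 0.00113), and all 4 arrays of the transformed strains lay above all 4 of the others. RPP0, the base of the stalk, read 2619 and 2520.2 on the BY4741 arrays, 1823 and 2146 on A880, 7111 and 3537 on A880STM1 and 6293 and 5393 on A880STM1K and rose by 1.56 ± 0.30 on the log2 scale. RPP2B rose by 1.36 ± 0.30, RPL12A by 1.51 ± 0.34 and RPL12B by 1.36 ± 0.25. The P1 genes rose least, RPP1A by 0.85 ± 0.29 and RPP1B by 0.89 ± 0.31, and these 2 calls were lost when the first A880 array was left out, among other alternatives.

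Apart from L2, given above, 3 of 4 probe sets of the list of proteins near the peptidyl transferase centre rose. RPL3, whose protein reaches into that centre and is the target of trichothecene resistance mutations, read 4616 and 3514 on the BY4741 arrays, 2443 and 2522 on A880, 9885 and 4849.6 on A880STM1 and 9232 and 8098 on A880STM1K. It rose by 1.80 ± 0.31 in A880STM1K against A880, a call that held throughout. RPL10, which joins late in assembly, rose by 0.82 ± 0.24, and RPL28, a site of cycloheximide resistance mutations, by 1.00 ± 0.28, both lost without the first A880 array. RPL42B, whose protein also takes part in cycloheximide sensitivity, was measured by a shared probe set and changed by 0.55 ± 0.27 without passing the test. RPL5 and RPL11 bind the 5S rRNA as a particle that is inserted into the large subunit. RPL5 rose by 1.48 ± 0.31 and RPL11A by 1.24 ± 0.27, and both calls held throughout. The shared probe set of RPL11B rose by 0.93 ± 0.25, lost without the first A880 array, and the unshared one changed by 0.32 ± 0.30 and did not pass.

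The proteins that line the exit tunnel and surround its mouth rose in 12 of 14 probe sets, with a median of 1.03. RPL17B, at the tunnel wall, was the extreme of this list, and read 739 and 735 on the BY4741 arrays, 712 and 857 on A880, 1271 and 809.7 on A880STM1 and 3762 and 2608 on A880STM1K. Its partner RPL17A rose by 1.56 ± 0.32. RPL4B, which reaches into the tunnel, rose by 1.39 ± 0.27, RPL26B by 1.70 ± 0.32 and RPL31B by 1.71 ± 0.34, and these 5 calls held throughout. The shared probe set of RPL4A rose by 1.04 ± 0.31, RPL39 by 1.12 ± 0.31, RPL38 by 0.86 ± 0.30 and RPL31A by 0.98 ± 0.27, all lost without the first A880 array. RPL25, where chaperones and the signal recognition particle dock, rose by 1.02 ± 0.27, and RPL19A and RPL19B rose by 0.98 ± 0.24 and 0.98 ± 0.30, also lost without that array. RPL26A at 0.60 ± 0.27 and the shared probe set of RPL35A at 0.68 ± 0.26 did not pass.

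Bridges between the subunits are formed by L19, L24 and L41, and 4 of 5 of their probe sets rose. RPL24A rose by 1.25 ± 0.34 and RPL24B by 1.24 ± 0.30, of which the second call held throughout. L41 is a very short peptide at the centre of the interface, and the shared probe set of RPL41A behaved unlike the rest. It read 191 and 281 on the BY4741 arrays, 155 and 225 on A880, 448 and 331 on A880STM1 and 141 and 194 on A880STM1K, so that the A880STM1 arrays lay above the other 6 and the A880STM1K arrays overlapped A880. Its change in A880STM1K against A880 was -0.17 ± 0.34.

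The 3 genes for proteins made as fusions to ubiquitin, which is cleaved off before assembly, all rose: RPL40A by 0.86 ± 0.27, RPL40B by 1.06 ± 0.30 and RPS31 by 1.02 ± 0.32. The 3 calls were lost without the first A880 array. Of the small-subunit proteins along the mRNA path and at the decoding centre, 8 of 14 probe sets rose, with a median of 1.07. RPS2, at the mRNA entry, rose by 1.32 ± 0.30, and RPS15, whose tail reaches the decoding centre, by 1.30 ± 0.28. RPS26A, at the mRNA exit, rose by 1.35 ± 0.32 on its unshared probe set and by 1.42 ± 0.33 on the shared one, and RPS26B by 1.80 ± 0.46, a call lost without the first A880STM1K array. RPS3, also at the entry, rose by 0.87 ± 0.27 and lost the call without the first A880 array. RPS23 sits at the decoding centre, and its copies were called differently: RPS23B rose by 1.30 ± 0.22 while the unshared and shared probe sets of RPS23A changed by 0.53 ± 0.24 and 0.59 ± 0.25 and did not pass. The shared probe set of RPS30A changed by -0.15 ± 0.21, the smallest absolute change of this list. RPS6B, a shared probe set for the protein phosphorylated under TOR control, rose by 0.92 ± 0.28, lost without the first A880 array.

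Several ribosomal proteins limit their own production, by acting on the splicing, translation or decay of their own mRNAs. Of the 9 probe sets of this list 5 rose, and the calls divided within pairs. RPL30, which binds its own transcript, rose by 1.23 ± 0.30. RPS14A rose by 1.26 ± 0.29, from 2355 and 2229 on A880 to 6148 and 4931 on A880STM1K. RPS14B, whose pre-mRNA the S14 protein binds, went from 1850.0 and 1918 to 1239.7 and 1404, without overlap and lower. Its change of -0.51 ± 0.22 did not pass the test (adjusted p = 0.0764). RPS9B rose by 1.48 ± 0.29 while RPS9A changed by 0.50 ± 0.23 and did not pass. RPS28A at 0.38 ± 0.23 and RPS28B, whose mRNA is destabilised by its own protein, at 0.20 ± 0.26 did not pass either. RPL22A and RPL22B, of which the first product acts on splicing of the second, both rose as given above.

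The 31 probe sets not called in A880STM1K against A880 ranged from -0.51 to 0.91, and 16 of them were nevertheless higher on both A880STM1K arrays than on both A880 arrays. The members with changes below 0.1 were RPS14B, RPS25B at -0.28, RPS27A at -0.24, the shared probe sets of RPL41A and RPS30A, RPL15B at -0.07, RPL36A at 0.01 and the unshared probe set of RPL14B at 0.02. RPS25B, a protein near the exit site for spent tRNA, read 2432 and 2484 on the BY4741 arrays, 2506 and 2645 on A880, 2194 and 1981 on A880STM1 and 2945 and 1524 on A880STM1K, with A880STM1K spread on both sides of A880. RPL15B read 771 and 779 on the BY4741 arrays, 865 and 899 on A880, 508 and 588 on A880STM1 and 674 and 1053 on A880STM1K, and its 2 A880STM1 values lay below all others. In 132 of 147 members, both A880STM1K arrays lay above both A880 arrays, and in 2, RPS14B and RPS30A, both lay below, beside 32.6% and 44.8% of all tested probe sets.

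The comparison of A880STM1 with A880 shares the A880 arrays with the one above. LEU2 read 248 and 214 on A880 and 7704 and 3412 on A880STM1, and AGA2 read 729 and 747 on A880 and 70.6 and 76.0 on A880STM1. The part of these markers in the results was not tested. Of 147 members 21 rose and 0 fell, with a median log2 change of 0.60, while 6.82% of all tested probe sets rose, 13.1% fell and their median was -0.27. Both A880STM1 arrays lay above both A880 arrays in 97 members and below them in 5, beside 23.3% and 47.9% of all tested probe sets. The count turned on single arrays: without the second A880STM1 array 99 members rose and 1 fell, and without the first A880STM1 array, or without either A880 array, 1 member was called. The median was 1.00 without the second A880STM1 array, with -0.42 over all tested probe sets, and 0.21 without the first, with -0.13 over all. With array medians made equal 19 members rose, and calls over all tested probe sets turned to 630 higher and 321 lower from 375 and 719, or to 547 and 521 with quantile normalization.

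RPP2A had the largest rise, 1.80 ± 0.32 (adjusted p = 0.00657), and was the single call that held under both other scalings and with each array left out. RPS29A, a zinc-binding protein of the small-subunit head, rose by 1.69 ± 0.40 on its unshared probe set, from 659 and 682 on A880 to 3416 and 1364 on A880STM1. The shared probe set of the same gene read 931 and 1077 and 4098 and 1544 on the same arrays. In both probe sets the 2 A880STM1 values lay far apart, and both were above the A880 values. RPL9A at 1.48 ± 0.44, RPL3 at 1.48 ± 0.31, RPL22A at 1.36 ± 0.35, RPP0 at 1.34 ± 0.30, RPL15A at 1.33 ± 0.33, RPS20 at 1.31 ± 0.31 and RPP2B at 1.31 ± 0.30 followed. The stalk rose in 3 of 7 probe sets, with a median of 0.89, and all 7 had both A880STM1 arrays above both A880 arrays. The exit tunnel list rose in 3 of 14 (RPL17A, RPL38 and RPL39), the self-regulated list in 4 of 9 (RPL30, RPS14A, RPL22A and RPS9B), the 5S particle in 1 of 4 (RPL5), the catalytic centre list in 1 of 4 (RPL3) and the mRNA path in 1 of 14 (RPS14A). None of the ubiquitin fusions, 0 of 3, or of the bridge proteins, 0 of 5, passed the test. At the other end RPS9A changed by -0.70 ± 0.23 and RPL15B by -0.69 ± 0.26 without passing, although both A880STM1 arrays lay below both A880 arrays in each.

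The direct comparison of A880STM1K with A880STM1 addresses the R237K substitution, but these arrays also differed in other marker genes. URA3 read 4956 and 4315 on A880STM1 and 1850 and 1384 on A880STM1K. MET17 read 2013 and 1210 on A880STM1 and 4608 and 7264 on A880STM1K. Their part in the results was not tested. Of 147 members 23 rose and 2 fell, with a median of 0.45 beside 0.10 over all tested probe sets, of which 17.9% rose and 17.1% fell. The share of ribosomal proteins that rose, 23 of 147, thus lay near that of all tested probe sets. The count was 12 without the second A880STM1 array and 89 without the first, 13 without the first A880STM1K array and 41 without the second, and 17 without any 1 array of BY4741 or A880. The median also turned on single arrays: it was 0.05 without the second A880STM1 array, beside 0.20 over all tested probe sets, and 0.83 without the first, beside -0.03. It was 0.23 without the first A880STM1K array, beside 0.01 over all, and 0.67 without the second, beside 0.19. In all, 9 of the 25 calls held under both other scalings and with each array left out. These 9 were RPL11A, RPL13A, RPL17B, RPL22B, RPL29, RPS0B, RPS7A, RPS9A and RPS23B, and all of them rose. RPL13A read 533 and 594 on the BY4741 arrays, 648 and 765 on A880, 972 and 623 on A880STM1 and 3934 and 2043 on A880STM1K, a change of 1.87 ± 0.33 (adjusted p = 0.00176). RPL17B changed by 1.63 ± 0.28 (adjusted p = 0.00147). RPL11A read 1653 and 1846 on A880, 2175 and 1369 on A880STM1 and 4874 and 3470.3 on A880STM1K, a change of 1.25 ± 0.27.

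RPS0B, which the small subunit needs for maturation, read 1469.8 and 1236 on A880STM1 and 4325 and 2389 on A880STM1K, and RPS7A read 1104 and 974 and 2962 and 1939. Their changes were 1.25 ± 0.28 and 1.21 ± 0.25. RPS9A, which did not pass against A880, rose by 1.20 ± 0.23 here, from 566 and 771 to 1604 and 1429. RPS18B rose by 1.34 ± 0.30 and RPL2A by 1.30 ± 0.33, calls that some alternatives lost. The stalk differed little by the median, 0.14, with 1 of 7 called (RPL12B at 0.86 ± 0.25), and the 5 RPP genes lay between -0.05 and 0.22. The 2 members that fell were RPS27A at -0.76 ± 0.25 and the shared probe set of RPL41A at -1.22 ± 0.34, and both calls were lost under some alternatives.

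The A880STM1 and BY4741 arrays also differed in POP2, STE18 and URA3, as given above. LEU2 read 530 and 542 on BY4741 and 7704 and 3412 on A880STM1. The part of these markers in the results was not tested. Against BY4741, A880STM1 had 14 members higher and 0 lower, with a median of 0.63, while 5.40% of all tested probe sets rose and 6.30% fell. The largest rises were those of RPL2B at 1.48 ± 0.38, RPP2A at 1.47 ± 0.32 and RPS29A at 1.46 ± 0.40. None of the 14 calls held with each array left out, and the count was 0 without either BY4741 array or without the first A880STM1 array, and 99 without the second. The median was 0.23 without the first A880STM1 array and 1.04 without the second. With array medians made equal 2 members rose, and the calls over all tested probe sets turned to 358 higher and 193 lower from 297 and 346.

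The A880STM1K and BY4741 arrays differed in the same markers, with LEU2 at 9186.5 and 7640 on A880STM1K, and their part was not tested. A880STM1K against BY4741 had 116 members higher and 1 lower, with a median of 1.12, while 21.2% of all tested probe sets rose and 28.3% fell. RPL13A rose by 2.33 ± 0.33, RPS11B by 2.31 ± 0.34 on its unshared probe set, RPL2B by 2.27 ± 0.38 and RPL17B by 2.09 ± 0.28. RPS27A, a zinc-binding protein of the small subunit, was the member that fell, by 0.71 ± 0.25 on the log2 scale (adjusted p = 0.0346), from 4470.1 and 4346 on BY4741 to 3376 and 2145 on A880STM1K. The RPS27A call was lost with array medians made equal, without the intensity trend and with only the 4 arrays compared, among other alternatives. Of the 117 calls 63 held under both other scalings and with each array left out, and the count was 72 without the first BY4741 array and 75 without the first A880STM1K array. With array medians made equal the calls over all tested probe sets turned to 1489 higher and 1306 lower from 1164 and 1556.

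The gene table holds 59 A and B pairs, of which 49 have an unshared probe set for each copy on the array. Because signals of different probe sets cannot be set against each other, a pair was described by log2(A) minus log2(B) on each array, relative to its BY4741 mean. These differences had no test. In A880STM1K against A880 both copies rose in 29 pairs, the A copy alone passed in 9, the B copy alone in 8, and neither in 3. The changes of the copies lay within 0.5 of each other on the log2 scale in 25 pairs and more than 1 apart in 7, and the median absolute difference was 0.49. In A880 against BY4741 they lay within 0.5 in 33 pairs and more than 1 apart in 1.

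L15 was the pair with the widest range of group means, 2.23 on the log2 scale. The difference for RPL15A and RPL15B was -0.74 and -0.79 on the A880 arrays, 1.96 and 0.56 on A880STM1 and 1.98 and 0.95 on A880STM1K. The A copy thus lost ground to the B copy in A880 and gained it on all 4 arrays of the transformed strains. S14 followed the same order, at -0.61 and -0.75, 1.17 and 0.12 and 1.35 and 0.85, with a range of 1.78. S27 ran towards the B copy throughout, at -0.72 and -0.98 on A880, -0.59 and -0.27 on A880STM1 and -1.70 and -1.97 on A880STM1K. Its 2 arrays per strain stayed within 0.32 of each other, against a range of 1.83 between strains. RPS27B read 2553 and 2749.7 on the BY4741 arrays, 3181 and 3707 on A880, 4626 and 2930.3 on A880STM1 and 6609 and 5036 on A880STM1K, and RPS27A 4470.1 and 4346 on the BY4741 arrays, 3215 and 3122 on A880, 5119 and 4051 on A880STM1 and 3376 and 2145 on A880STM1K.

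S18 and L26 also moved towards the B copy in A880STM1K, at -1.62 and -1.37 and at -1.44 and -1.59, while the A880STM1 arrays stood at -0.32 and -0.40 and at -0.92 and -0.36. S11 moved towards the B copy on the arrays of both transformed strains, at -1.92 and -0.89 on A880STM1 and -1.24 and -1.61 on A880STM1K. L14 and S22 moved towards the A copy in all strains other than BY4741. L14 stood at 0.49 and 0.42 on A880, 1.44 and 0.57 on A880STM1 and 1.55 and 1.62 on A880STM1K. S22 stood at 0.36 and 0.50, 1.61 and 0.39 and 1.82 and 1.12 in the same order. L13 differed in sign between the transformed strains, at -0.97 and -0.45 on A880STM1 and 1.16 and 0.52 on A880STM1K. S9 stood at 1.13 and 0.93 on A880, -1.33 and 0.01 on A880STM1 and -0.06 and 0.15 on A880STM1K, and its A880STM1 arrays lay far apart. At the other end were S8, S1, L19, L21 and L34, with ranges of 0.14, 0.17, 0.25, 0.30 and 0.33, beside a median of 0.86 over the 49 pairs. In A880STM1K against A880 the copies of S8 changed by 1.52 and 1.50, and those of L19 by 0.98 and 0.98.

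**Figure D4:**
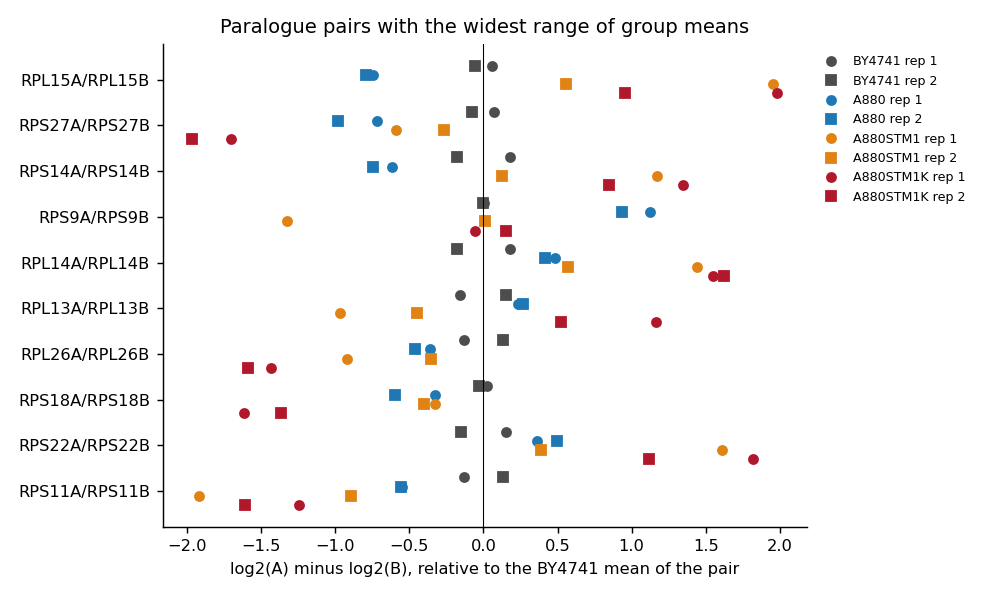
Difference between the 2 copies of a ribosomal protein, log2(A) minus log2(B) relative to the BY4741 mean of the pair (x axis), for the 10 pairs with the widest range of group means, with a circle for replicate 1 and a square for replicate 2 of each strain. S27, L26, S18 and S11 lie left of 0 on both A880STM1K arrays, and L15, S14 and L14 lie right of 0 there.

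For 20 genes the array carries an unshared and a shared probe set, which gives a second reading. In A880STM1K against A880 RPS26A changed by 1.35 unshared and 1.42 shared, RPS16A by 0.97 and 0.89, and RPS29A by 1.66 and 1.44. For 19 of the 20 genes both copies also have an unshared probe set, and the shared reading lay between the changes of the copies in 13, below both in 6 and above both in 0. Among those below were RPL2A at 1.48 shared, with the copies at 1.97 and 1.90, RPS8A at 1.05, with 1.52 and 1.50, and RPS17B at 0.77, with 1.38 and 0.96. Among those between were 4 genes whose copies differed more. RPS18B changed by 1.61 unshared and 0.67 shared, with RPS18A at 0.58, and RPS11B by 1.77 and 0.95, with RPS11A at 0.90. RPL11B stood at 0.32 and 0.93 with RPL11A at 1.24, and RPL14B at 0.02 and 0.56 with RPL14A at 1.16. RPL11B and RPL18B were called on the shared probe set and not on the unshared one.

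The members largely shared 1 pattern over the 8 arrays, which come as 4 groups of 2 arrays. Each probe set was correlated with the median member, as a description with no test. The median correlation of the members was 0.965, and 112 of 147, or 76.2%, lay above 0.9, beside 124 of the 5349 other tested probe sets, or 2.32%. Since the members set the median member, they are close to it in part by construction. RPS14B (-0.62), RPL15B (-0.31), RPS28B (-0.22), RPS27A (-0.17) and RPS25B (-0.15) were the 5 members with a correlation below 0. By distance of group means the nearest to the median member were the shared probe set of RPS8A, RPL34A, RPL19B and the shared probe sets of RPS24A and RPS4B, and the farthest were RPL41A, RPS27A, RPS14B, RPS25B and RPS28B. Outside the group, DPS1, the cytosolic aspartyl-tRNA synthetase, and ARO4, an enzyme of aromatic amino acid synthesis, had the highest correlation, 0.985 each, followed by LYS12 of lysine synthesis and the translation elongation factor genes EFT2 and EFB1.

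Genes that act with ribosomal proteins were read from lists chosen with earlier results of these data known, beside the 19.1% of all tested probe sets that rose and the 28.0% that fell in A880STM1K against A880. Of 15 probe sets for regulators of ribosomal protein transcription and TOR signalling, 0 rose and 7 fell. CRF1, a corepressor of ribosomal protein genes, changed by -3.03 ± 0.42 (adjusted p = 0.000392), the TOR kinases TOR1 and TOR2 by -1.55 ± 0.29 and -1.09 ± 0.25, and the acetyltransferase ESA1 by -1.14 ± 0.23, all held throughout. IFH1, the coactivator at these promoters, at -1.18 ± 0.31, ABF1 at -1.06 ± 0.35 and TCO89 at -0.80 ± 0.25 fell with calls lost under some alternatives. In A880 against BY4741 FHL1, the factor that recruits Ifh1, fell by 1.29 ± 0.36 on the log2 scale (adjusted p = 0.0401), 1 of 15 called.

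Of 22 probe sets for translation factors 9 rose and 0 fell in A880STM1K against A880, among them TEF4 at 2.73 ± 0.45, YEF3 at 2.27 ± 0.39 and GCD11 at 1.09 ± 0.21. The other 6 were TIF4631 at 1.13, RLI1 at 0.96, EFB1 at 0.79, SUP35, the release factor, at 0.71, and the shared probe sets of TIF2 at 0.97 and EFT2 at 0.88. Of 12 for ribosome-associated proteins 6 rose and 1 fell. Those that rose included ASC1, the RACK1 protein of the small subunit, at 1.86 ± 0.35, and the nascent-chain chaperone SSB2 at 1.57 ± 0.33. The others were SSB1 at 2.27 unshared and 1.35 shared, EGD2 of the nascent-chain-associated complex at 1.11, and STM1 itself. STM1 is the gene introduced into this strain, so its rise was built into the design, and SSB1 accounts for 2 of the 6 probe sets. The probe set that fell was LSO1 at -2.53 ± 0.38. Of 11 probe sets for dedicated chaperones and assembly helpers of ribosomal proteins 1 rose, RRB1, the chaperone of Rpl3, at 1.30 ± 0.45. Another 3 fell, a share near the 28.0% of all tested probe sets. They were TSR2, the chaperone of Rps26, at -1.71 ± 0.41, FAP7, which acts with Rps14, at -1.53 ± 0.27, and LOC1 at -1.42 ± 0.25. Of 10 probe sets for enzymes that modify ribosomal proteins 2 rose, RKM4 at 2.14 ± 0.38 and RKM3 at 0.99 ± 0.28. That share, 20%, lay near the 19.1% of all tested probe sets. Another 2 fell, RKM1 at -1.17 ± 0.31 and SFM1 at -0.68 ± 0.23.

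Of 28 probe sets for ribosome biogenesis factors 5 rose, or 17.9%, near the 19.1% of all tested probe sets, and 2 fell. Those that rose were NOP58 at 2.64 ± 0.49, NOP56 at 2.09 ± 0.49, GAR1 at 2.02 ± 0.46, CBF5, the rRNA pseudouridine synthase, at 1.94 ± 0.41, and UTP10 at 1.37 ± 0.48. EBP2 at -1.31 ± 0.36 and UTP20 at -1.06 ± 0.35 fell. Of 8 for RNA polymerase I, which makes rRNA, 0 rose and 2 fell, RPA14 at -1.76 ± 0.27 and RPA12 at -1.60 ± 0.38. The share that fell lay near the 28.0% of all tested probe sets. Of 18 for general stress genes, whose mRNAs commonly move against ribosomal proteins, 5 rose and 2 fell. GSY2 and PGM2 of carbohydrate storage rose by 1.84 ± 0.26 and 1.35 ± 0.22, the glycogen phosphorylase GPH1 by 0.90, and TPS1 and TPS2 of trehalose synthesis by 0.85 and 0.62. The heat-shock chaperone SSA4 fell by 1.41 ± 0.27 on the log2 scale, and ALD3, an aldehyde dehydrogenase, changed by -1.12 ± 0.33. For the lists from the translation factors to the stress genes, which calls held under the alternatives is not given here.

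**Figure D5:**
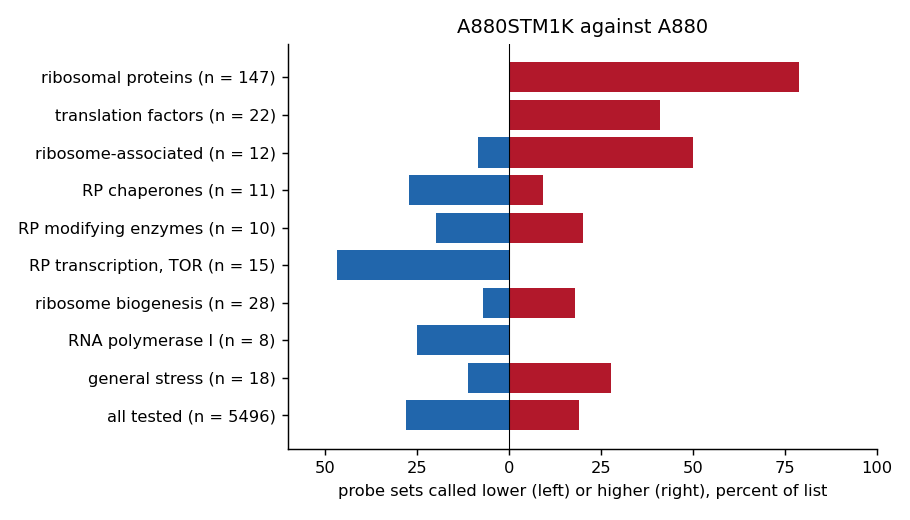
Percent of the tested probe sets of each list called lower (blue, left) or higher (red, right) by limma in A880STM1K against A880, with the number of probe sets beside each name. Ribosomal proteins rose in 116 of 147 and fell in 0, translation factors rose in 9 of 22, and regulators of ribosomal protein transcription rose in 0 and fell in 7 of 15.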

How the data were processed

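Labelled RNA of 8 cultures, 2 for each of 4 strains, was hybridised to Affymetrix Yeast Genome 2.0 arrays, 1 array per culture and 1 colour, from 10 µg of total RNA per the labels. The deposited values are linear intensity, 1 per probe set, for which the submitters' processing notes name MAS5 without version or settings. The 2% trimmed mean of each array lay between 500.15 and 500.26. Arrays have no read depth, and their number, 2 per strain, limits the precision. Probe sets were named through the platform annotation, and symbols were checked against the gene table of assembly R64, used for names only. Background was the 90th percentile of each array's probe sets for another yeast species, and the 5496 probe sets above it on at least 2 arrays were tested.

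The log2 signals were fitted as 4 group means over all 8 arrays with limma 3.58.1 in R 4.3.3, using eBayes with the trend option, with a median prior of 6.56 degrees of freedom beside 4 residual ones. Benjamini-Hochberg adjustment ran within each of 6 contrasts over all 5496 probe sets, at a threshold of 0.05, and ± gives the SE. The members and gene lists were chosen with earlier results of these data known. The fit was repeated with array medians made equal, with quantile normalization, a pseudocount of 16, other filters on dim probe sets, no intensity trend, array weights per group, only the 4 arrays compared, unshared probe sets alone, the replicate number as a block, and each array left out.

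Genes were eligible to be named by a rule, from which the text gives in full the called genes of the other lists in A880STM1K against A880, and otherwise a part with the rest as counts. The rule takes the stalk, ubiquitin fusion, catalytic centre, 5S, tunnel, bridge, mRNA path, self-regulated and S6 members; up to 10 called members per contrast with the largest change in each direction, without overlap of the groups; the 10 widest and 5 narrowest pairs; the 5 members nearest to and farthest from the median member; genes with more than 1 probe set; POP2 and STM1; and called genes of the other lists.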

Additional observations from a re-analysis of the deposited data

How the results depend on the processing

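Of 4998 values for single called members under an alternative, 0 changed direction, 4333 kept their side of the threshold and 665 lost it. Genes of the lists that are not members were not part of this count. The count of 0 reversals was largely fixed in advance. Other filters, no trend, group weights, only the 4 arrays compared and the replicate block leave the log2 change as it was. Leaving out an array outside the comparison does so too. The pooled count therefore says little about how single comparisons depend on an array, which is given below. The median of the members in A880 against BY4741 went from 0.02 to -0.10 with equal array medians, and the balance of calls over all tested probe sets turned as the report gives. For A880 against BY4741, with 1 member called, 5 were called after quantile normalization, 2 with equal array medians, 37 with array weights per group and 33 with only the 4 arrays compared, and between 0 and 3 with an array left out. For A880STM1 against A880, with 21, the count was 12 without the intensity trend, 7 with only the 4 arrays, and 1 to 100 with an array left out. For A880STM1K against A880, with 116, it was 57 to 126 with an array left out, and against BY4741, with 117, 72 to 127. For A880STM1K against A880STM1, with 25, it was 12 with equal array medians, 7 with array weights, 14 with only the 4 arrays, and 12 to 89 with an array left out. For A880STM1 against BY4741, with 14, it was 2 with equal array medians, 2 without the trend, 9 with array weights, and 0 to 99 with an array left out. The causes were not tested. Where an array was left out, the lone array of its strain was assumed to vary like the other groups. The median change of the members in A880STM1K against A880 was 0.84 after quantile normalization and 1.40 with equal array medians.

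Arrays with the same replicate number correlated in their deviations from the group mean by 0.037 to 0.29 over the 6 pairs of strains. The labels tie a number to no day or batch, so whether such arrays shared one is not known. With the replicate block, 39 members were called in A880STM1 against A880, 39 in A880STM1K against A880STM1 and 36 in A880STM1 against BY4741.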

Other observations

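The array also carries 14 probe sets for ribosomal proteins of another yeast species. Their signals ran from 0.0722 to 20.6, and 0 of them were above background on all arrays, while 6 were above it on none.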
